A study of Homo sapiens with 12 samples.

Results

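The small nucleolar RNA (snoRNA) host gene transcripts were taken as the genes whose GENCODE symbol is SNHG followed by a number, together with GAS5, ZFAS1, EPB41L4A-AS1, DANCR and CYTOR. The rule named 33 of the 58721 genes in the files, and all 33 are annotated as lncRNA. A snoRNA or small Cajal body RNA (scaRNA) gene of the files or of RefSeq lay within the span of 31 of them. CYTOR and SNHG27 held none, and are called host genes below only because the rule names them. ART-seq, a form of ribosome profiling, was performed in HepG2, an established human liver cancer cell line, 2 days after transient knockdown of the RNA-binding protein IGF2BP3 (siIGF2BP3) or transfection of the control siRNA (siControl). In the study's ART-seq protocol, cells received cycloheximide, which halts elongating ribosomes, at 100 µg/mL for 4 min. Whether cells for the Input libraries were handled in the same way is not described in the sources used here. Input libraries report RNA abundance and RPF libraries hold ribosome-protected fragments of 28 to 30 nt, with 3 libraries in each of the 4 groups and 12 in total. The labels do not state whether the 3 libraries of a group came from separate cultures, so p-values measure the spread between these libraries only, which may be technical.

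A host gene is transcribed as a long precursor whose introns hold snoRNAs. The snoRNAs are trimmed out of the excised introns, bind a core of proteins and guide the 2'-O-methylation (C/D box class) or pseudouridylation (H/ACA box class) of ribosomal and spliceosomal RNA, while scaRNAs do this in Cajal bodies. The spliced exons are exported and, in several host genes, hold short reading frames that ribosomes engage, after which the RNA is degraded by nonsense-mediated decay. Many host genes start with a C followed by a run of pyrimidines (5'TOP), a motif shared with ribosomal protein mRNAs whose translation follows growth signals.

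Library totals ranged from 11219750 to 31510601 counts, and the host genes held between 0.0991% and 0.119% of them. IGF2BP3 itself lay between 126.7 and 133.3 CPM (the count scaled to a common library total) in siControl Input and between 97.9 and 105.5 in siIGF2BP3 Input. In RPF it lay between 74.6 and 78.1 in siControl and between 21.9 and 28.0 in siIGF2BP3, so the groups did not overlap in either assay. siControl RPF replicates 2 and 3 differed by less than the sampling noise over all genes (mean chi-square 0.941 per gene), though by slightly more than it over 12301 protein-coding genes (1.06, chi-square p = 5.71e-07), and were counted as 1 sample in means and SDs. siIGF2BP3 RPF replicate 1 stood apart: its mean chi-square per gene was 19.9 against replicate 2 and 21.5 against replicate 3, while replicates 2 and 3 gave 1.15. Among 9 HepG2 markers, all were detected, and 5 of them (TF, ALB, AFP, APOA1 and SERPINA1) fell in Input after knockdown. Defining markers of other cell types were at or near 0 in Input, with PECAM1 the highest at 1.48 CPM in siControl, and GFAP reached 5.49 CPM in RPF.

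The starts of the host genes are shown because a 5'TOP start is a known property of host genes and can be read from sequence. In the RefSeq promoter table (GRCh38.p14), 29 of the 33 host genes had an entry. A C followed by at least 4 further C or T bases stood exactly at the annotated start in 7 of the 29 (24.1%), against 4.04% of all 27305 entries and 16.7% of 215 protein-coding snoRNA hosts. When the C was allowed to lie up to 5 bases on either side, 13 of 29 host genes (44.8%) had such a tract, against 21.1% of all entries and 31.2% of the protein-coding snoRNA hosts. Capitals mark the tract, and each line shows 10 bases before the start and 20 bases from it, on the transcribed strand. SNHG18, which had no count in any library, also has a tract at its start and is not printed. SNHG27 and SNHG28, likewise without a count, are among the 29 and have no tract. GAS5 and SNHG3 are given as entries without a tract. In these 2 the window lies wholly upstream of the gene as counted, whose first base is at 173868882 (GAS5) and 28505980 (SNHG3). Their entries therefore do not show whether the counted transcripts start with a tract. The windows of SNHG12, SNHG32 and ZFAS1 lie wholly inside the gene as counted, whose first base is at 28583132, 31834608 and 49278178. Tracts of these genes stand at an annotated start within the counted gene, and which start the counted transcripts use was not tested.
SNHG12 (chr1:28581854-28581883, - strand): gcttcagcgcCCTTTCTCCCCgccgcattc
SNHG4 (chr5:139274091-139274120, + strand): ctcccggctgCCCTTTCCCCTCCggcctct
SNHG5 (chr6:85678714-85678743, - strand): gcacttcggtCTTTTacgtcggccttcgcg
SNHG32 (chr6:31834906-31834935, + strand): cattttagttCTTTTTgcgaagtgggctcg
SNHG19 (chr16:2155339-2155368, - strand): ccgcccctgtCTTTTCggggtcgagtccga
ZFAS1 (chr20:49278632-49278661, + strand): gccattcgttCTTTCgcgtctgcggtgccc
GAS5 (chr1:173869026-173869055, - strand): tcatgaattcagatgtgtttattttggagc
SNHG3 (chr1:28505933-28505962, + strand): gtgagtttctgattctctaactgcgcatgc
The annotated start is not always the start used in these cells, and no reads at base resolution were analysed here.

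In siControl Input, 26 of the 33 host genes had a mean of at least 1 CPM and 21 of at least 5 CPM. SNHG28, SNHG27 and SNHG18 had no count in any of the 12 libraries. Per exon length, SNHG6 was the most abundant, at 89.6 ± 2.52 RPKM (SD, n = 3) in siControl Input. SNHG16 followed at 35.6 ± 1.16 RPKM and SNHG29 at 22.1 ± 1.49 RPKM, and the SDs of neighbours in this order did not overlap. ZFAS1 at 18.4 ± 1.45 RPKM, SNHG19 at 16.3 ± 0.956 RPKM and SNHG8 at 15.6 ± 0.168 RPKM were closer together, and the interval of SNHG19 overlapped those of both neighbours. In siControl RPF the order of these 6 was different, with SNHG19 highest at 47.8 ± 2.87 RPKM (n = 2) and SNHG6, at 13.5 ± 0.216 RPKM, within the spread of ZFAS1, at 13.7 ± 0.289 RPKM, at the bottom.

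With all counts kept, the host genes as a list had footprints near the coding median for their RNA level, and single genes ranged far to both sides. The ratio of RPF CPM to Input CPM in siControl had a median of 0.749 over the 26 host genes with at least 1 CPM in Input. The same median was 0.873 over 11951 coding genes, 0.683 over 221 protein-coding snoRNA hosts and 0.201 over 1055 other lncRNA genes. A ratio above the coding median was seen in 11 of the 26 host genes (42.3%) and in 14.2% of the other lncRNA genes. Of the listed nuclear lncRNAs, 5 reached 1 CPM, and their ratios ran from 0.00254 in NEAT1 to 0.0915 in TUG1. The cytoplasmic lncRNAs NORAD, at 0.0283, and OIP5-AS1, at 0.0194, were below all 26 host genes with all counts kept, the lowest of which was SNHG31 at 0.0555.

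Among host genes with at least 5 CPM in Input, SNHG20 (chr17:77086716-77099902) had the highest ratio. Its siControl Input held 6.29, 5.55 and 5.75 CPM in replicates 1, 2 and 3, and its RPF held 104.7, 115.8 and 120.6 CPM. SNHG1 (chr11:62851988-62855914) was second, with 27.6, 27.9 and 26.6 CPM in Input and 182.1, 188.5 and 196.8 CPM in RPF. SNHG3, which hosts H/ACA snoRNAs of ribosomal RNA processing, held 20.3, 20.3 and 20.5 CPM in Input and 63.4, 70.4 and 65.5 CPM in RPF. SNHG19 held 5.25, 5.90 and 5.58 CPM in Input and 15.6, 18.0 and 16.1 CPM in RPF. In each of these 4 genes the RPF libraries lay above all Input libraries, and the ratios were 19.0, 6.85, 3.23 and 2.93 in the order given.

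At the other end stood SNHG6, EPB41L4A-AS1, SNHG14 and SNHG10. SNHG6, host of a C/D box snoRNA, held 110.3, 109.6 and 115.4 CPM in siControl Input but 17.0, 17.1 and 16.2 CPM in RPF, a ratio of 0.151. EPB41L4A-AS1 held 27.9, 32.0 and 32.7 CPM in Input and 6.16, 4.55 and 5.01 CPM in RPF, a ratio of 0.177. SNHG14, the long transcript of the imprinted Prader-Willi region that carries the SNORD116 array, held 187.8, 166.5 and 169.1 CPM in Input and 49.0, 46.6 and 48.4 CPM in RPF. For SNHG10, which hosts a scaRNA, the Input held 12.2, 10.3 and 11.6 CPM and the RPF 3.72, 3.60 and 3.74 CPM. GAS5, a growth arrest transcript and a textbook target of nonsense-mediated decay, lay in between, with 54.2, 58.6 and 49.8 CPM in Input and 65.8, 65.4 and 65.8 CPM in RPF.

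In edgeR's quasi-likelihood test of RPF against Input within siControl, centred on the median of coding genes, 14 host genes were called higher and 12 lower of the 29 tested. Nearly every gene passes this test, since 57.3% of all 20595 genes were called higher and 35.1% lower, so the count says little about the host genes and the size of the ratio carries the information. The median log2 ratio was -0.08 over the tested host genes, 0.60 over all tested genes and 0.00 over coding genes. SNHG1 stood 2.93 above the coding median on the log2 scale (SE 0.0487, edgeR adjusted p = 2.78e-15) and SNHG6 at -2.59 (SE 0.0467, edgeR adjusted p = 5.98e-15). SNHG32, SNHG21 and SNHG26 were not called, with log2 values of -0.08, -0.48 and -0.56 (edgeR adjusted p = 0.371, 0.112 and 0.0598).

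**Figure D1:**
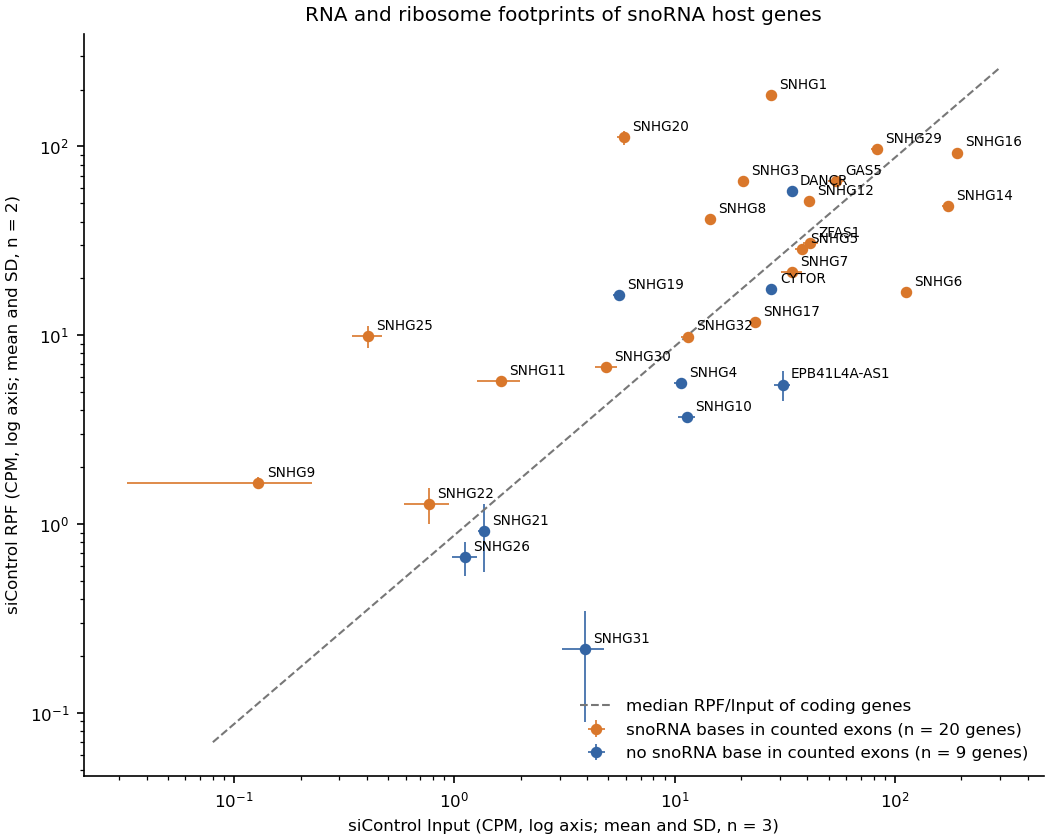
Mean RPF CPM against mean Input CPM in siControl for the 29 host genes with a value above 0 in both, on log axes with SD bars (n = 3 Input, n = 2 RPF). Points above the dashed line, the median ratio of coding genes, are mostly genes with snoRNA bases inside counted exons (orange), while SNHG31, EPB41L4A-AS1 and SNHG10 lie below it without such bases (blue).

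How the counts arose bears on these ratios. In 21 host genes the counted exons of at least 1 annotated isoform include snoRNA bases of the files or of RefSeq, and equal fractional counts in overlapping genes are what an even split of shared reads would give. The counting options are not given in the sources used here, so this split is an inference on which all values with shared counts removed rest. For example, SNHG15 and the snoRNA SNORA9 held the same count in 5 of the 7 libraries with a count of SNHG15. Over all host genes, 1.79% of the siControl Input counts but 41.1% of the siControl RPF counts were matched in number by counts of snoRNA or scaRNA genes overlapping their exons. The 3 RNAs below are shown because each is the largest source of shared RPF counts in its host. They are printed from GENCODE release 44 at the coordinates of the files (hg38), with capitals marking the C box and D box of SNORD27 and the ACA of the H/ACA RNAs.
SCARNA16 in SNHG20 (chr17:77089307-77089493, + strand): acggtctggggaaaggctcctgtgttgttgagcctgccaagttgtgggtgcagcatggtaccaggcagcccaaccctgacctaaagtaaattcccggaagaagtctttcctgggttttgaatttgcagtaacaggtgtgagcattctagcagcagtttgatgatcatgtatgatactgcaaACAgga
SNORA61 in SNHG12 (chr1:28579764-28579893, - strand): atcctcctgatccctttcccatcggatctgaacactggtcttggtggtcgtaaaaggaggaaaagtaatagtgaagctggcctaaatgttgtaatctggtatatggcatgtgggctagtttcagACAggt
SNORD27 in SNHG1 (chr11:62855012-62855083, - strand): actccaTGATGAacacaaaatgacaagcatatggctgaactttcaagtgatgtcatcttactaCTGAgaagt
SCARNA16 had 109 CPM in siControl RPF and 0.131 CPM in siControl Input, and its count equalled 97.4% of the RPF count of SNHG20. SNORA61 had 34.0 CPM in RPF and 9.40 CPM in Input, and SNORD27 42.0 CPM in RPF and 0.145 CPM in Input. Whether these fragments are ribosome footprints was not tested.

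With the shared counts removed from the host genes, an alternative chosen after seeing the data, the median siControl ratio fell from 0.749 to 0.612. Of the 26 host genes, 7 lay above the coding median instead of 11. No count was removed from coding genes, so their median of 0.873 is with all counts kept. SNHG20 went from 19.0 to 0.504, SNHG3 from 3.23 to 0.628, SNHG12 from 1.26 to 0.173 and SNHG14 from 0.276 to 0.0127. In the test against Input, 9 host genes were then called higher and 17 lower of the 28 tested, with SNHG20 at -0.85 and SNHG3 at -0.54 on the log2 scale. SNHG32, which was not called with all counts, moved from 0.860 to 0.380 and was called lower at -1.26 (edgeR adjusted p = 1.23e-08). The whole count of a snoRNA gene was removed even where only part of it lies in counted exons. Examples are SNORD48 in SNHG32, with 39 of 64 bases, and SNORD30 in SNHG1, with 34 of 70. They held 4.31 and 31.3 CPM in siControl RPF, so the removal may take too much from these host genes. SNHG6 moved from 0.151 to 0.0904 and from -2.59 to -3.31 on the log2 scale. SNHG1 kept a ratio of 4.02, but RefSeq places SNORD31 and SNORD29, which have no gene of their own in the files, in its exons. The same holds for 9 snoRNAs of GAS5, so no shared count could be removed there. SNORD116 copies of SNHG14 are near-identical and their counts are uncertain. Coding genes also overlap exons on the same strand, namely RCC1 in SNHG3, SEC14L1 in SNHG20, SNRPN in SNHG14 and MATR3 in SNHG4. No count was removed for these.

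SNHG19 and DANCR exceeded the coding median with no snoRNA base in their counted exons. DANCR, a lncRNA named for its part in holding back differentiation, had a ratio of 1.70, with 33.0, 34.3 and 34.7 CPM in siControl Input and 56.6, 58.7 and 59.1 CPM in RPF. SNHG8 was close to unchanged when shared counts were removed, at 2.86 before and 2.76 after. Of the 9 host genes with at least 1 CPM and no snoRNA base in exons, the median ratio was 0.596, and SNHG19 and DANCR were the 2 above the coding median. CYTOR, which holds no snoRNA in its span, is among the 9, at 0.635. The 17 with snoRNA bases had a median of 1.17 before and 0.628 after removal. The share of exon bases in snoRNA and the ratio had a Spearman rho of 0.41 across these 26 genes, which share libraries and are not independent.

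Host genes with little RNA lay on both sides of the coding median. SNHG26, SNHG21 and SNHG31 were below it, at 0.596, 0.674 and 0.0555, and SNHG25 and SNHG11 above. SNHG25, host of both snoRNA classes, held 0.35, 0.47 and 0.40 CPM in siControl Input and 8.90, 10.8 and 10.7 CPM in RPF, of which 74.9% was matched by snoRNA genes. SNHG11 held 1.84, 1.21 and 1.83 CPM in Input and 5.59, 5.76 and 6.0 CPM in RPF, with 0.117% shared, although 4.83% of its exon bases lie in snoRNA. RPF lay above Input in all libraries of SNHG25 and SNHG11, and their Input values rest on few counts.

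**Figure D2:**
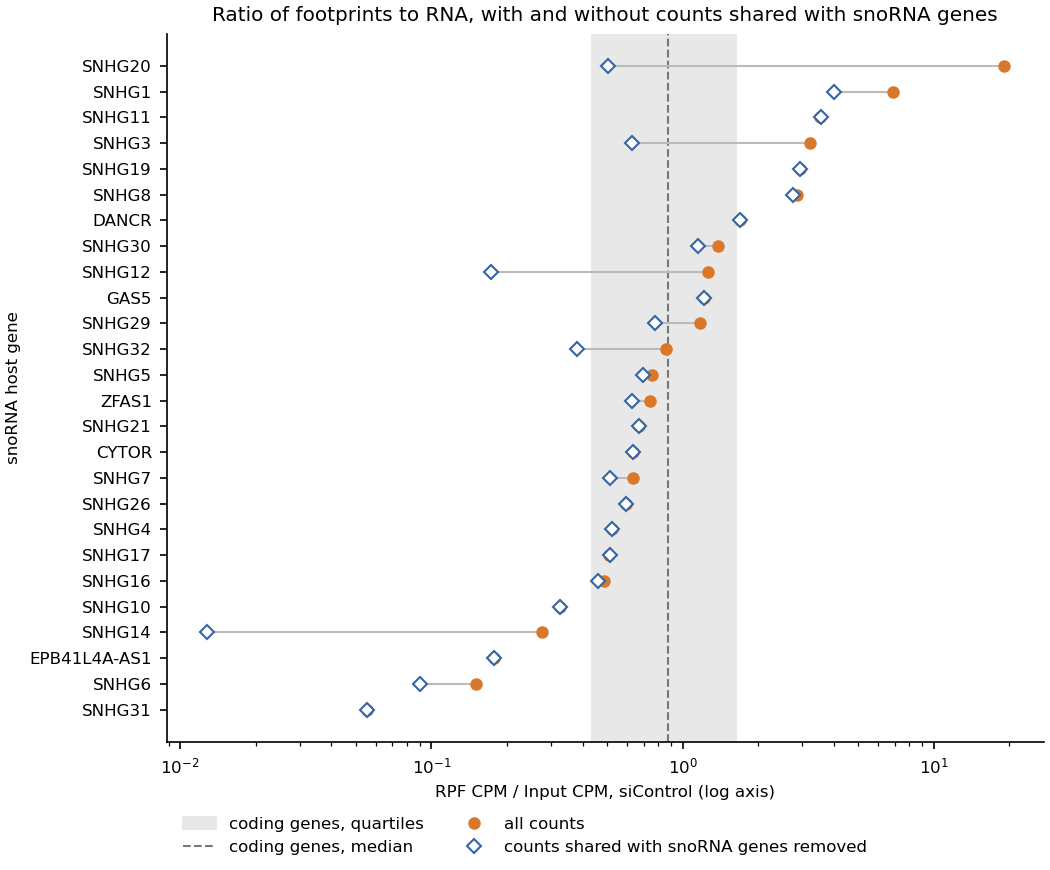
RPF/Input in siControl for the 26 host genes with at least 1 CPM in Input, on a log axis, with all counts (orange) and after removal of counts shared with snoRNA genes (blue diamonds); the grey band and dashed line are the quartiles and median of coding genes. SNHG20 moves from 19.0 to 0.504 and SNHG14 from 0.276 to 0.0127, while SNHG19 and DANCR do not move.

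After IGF2BP3 knockdown, the RNA of 3 host genes rose and none fell. SNHG12 (chr1:28578538-28583132), SNHG17 (chr20:38420588-38435353) and SNHG4 (chr5:139274102-139284899) all host H/ACA snoRNAs. SNHG12 Input was 39.9, 40.6 and 41.3 CPM in siControl and 49.8, 51.1 and 53.6 CPM in siIGF2BP3. SNHG17 Input was 21.7, 24.0 and 23.4 CPM in siControl and 28.0, 29.9 and 28.8 CPM in siIGF2BP3. SNHG4 Input was 10.0, 10.5 and 11.4 CPM in siControl and 14.1, 12.8 and 16.6 CPM in siIGF2BP3. The siIGF2BP3 libraries lay above all siControl libraries in each of these genes. In edgeR the log2 changes were 0.30 (SE 0.0626, adjusted p = 0.00434), 0.28 (SE 0.0806, adjusted p = 0.0382) and 0.39 (SE 0.116, adjusted p = 0.0428). The 3 calls were of 27 host genes tested, and 5.96% of all 14759 genes were called in either direction. Of these, SNHG12 was called in every leave-one-out fit and by DESeq2, which gave SNHG4 no adjusted p. Counts of snoRNA genes matched 23.5% of the siControl Input counts of SNHG12. With shared counts removed, its mean Input was 31.1 CPM in siControl and 38.1 CPM in siIGF2BP3. The log2 change of SNHG12 was then 0.25 (edgeR adjusted p = 0.0424). SNHG17 and SNHG4 lost their calls when single libraries of either group were left out (edgeR adjusted p between 0.0546 and 0.241 where lost). Of the 4469 exon bases of SNHG4, 626 lie in same-strand exons of the coding gene MATR3. The count of SNHG4 was fractional in 11 of the 12 libraries, and the part of MATR3 reads in it was not tested.

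Of the 27 host genes tested in Input, 23 had a log2 change above 0, and the median was 0.10, against 50.5% above 0 and a median of 0.00 over all genes tested. The median was 0.05 without siIGF2BP3 Input replicate 2 and 0.05 without replicate 3, and leaving out 1 library gave 18 to 23 changes above 0, the fewest without siControl Input replicate 1. Their summed level was 991 to 1014 CPM in siControl Input and 1060 to 1087 CPM in siIGF2BP3 Input. Most single changes were small, and 24 of the 27 did not pass the test. SNHG3 had a log2 change of 0.24 (edgeR adjusted p = 0.0957) and SNHG1 of 0.20 (edgeR adjusted p = 0.122). SNHG6 and SNHG16, the most abundant per length, had values of -0.09 and -0.06. Protein-coding snoRNA hosts had 11 rises and 12 falls of 224 tested, with a median of -0.04. Of the listed nuclear lncRNAs, 4 of 5 tested rose in Input (KCNQ1OT1, NEAT1, MALAT1 and TUG1), against 598 of all 14759 genes. DESeq2 called 3 of these lncRNAs in Input and did not call MALAT1.

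No host gene was called in the RPF comparison, in which 1.66% of all 20192 genes were called. With siControl RPF replicates 2 and 3 summed into 1 sample, 14 of 20785 genes and 0 host genes were called by edgeR. In that fit 7 of 28 host genes and 2286 of all genes had an unadjusted p under 0.05. Of the 28 host genes tested with edgeR, 8 had an unadjusted p under 0.05, against 3251 of all 20192 genes. DESeq2 called 4 (SNHG12, SNHG29, SNHG25 and SNHG20), against 667 of all 20192 genes. Counts of snoRNA or scaRNA genes matched 89.7%, 35.7%, 74.9% and 97.4% of the siControl RPF counts of these 4, in that order. In edgeR the log2 changes were above 0 in 24 of 28 host genes, with a median of 0.16 against 0.01 over all genes tested. Summed, the host genes held 993 to 1037 CPM in siControl RPF and 1147 to 1191 CPM in siIGF2BP3 RPF, and 592 to 606 against 660 to 692 CPM with shared snoRNA counts removed. The share of RPF counts in protein-coding genes moved with this, from 86.0% to 86.2% in siControl to 82.7% to 84.9% in siIGF2BP3, and its part in the host gene values was not tested. SNHG20 had the smallest adjusted p, with 104.7, 115.8 and 120.6 CPM in siControl RPF and 160.5, 147.7 and 139.8 CPM in siIGF2BP3 RPF. Its log2 change was 0.41 (SE 0.0856, edgeR adjusted p = 0.0667), and 0.27 (edgeR adjusted p = 0.520) with shared counts removed.

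Every RPF library moved the number of calls in this comparison. Leaving out siControl RPF replicate 1, 2 or 3 lowered the calls over all genes from 336 to 15, 11 and 15. Leaving out siIGF2BP3 RPF replicate 2 or 3 lowered them to 38 and 70. In each of these fits edgeR called 0 host genes, and 7 to 9 of 28 had an unadjusted p under 0.05. Over all genes, 2138 to 3352 had an unadjusted p under 0.05 in these fits. Without siIGF2BP3 RPF replicate 1, 9 host genes were called higher in edgeR, while the calls over all genes rose to 3410 of 20615. The 9 were SNHG3, SNHG12, GAS5, SNHG5, SNHG14, SNHG29, SNHG25, SNHG16 and SNHG20. Counts of snoRNA or scaRNA genes matched 80.9%, 89.7%, 95.4%, 74.9% and 97.4% of siControl RPF counts in SNHG3, SNHG12, SNHG14, SNHG25 and SNHG20. They matched 35.7%, 8.72% and 5.30% in SNHG29, SNHG5 and SNHG16, and in GAS5 none could be removed. This fit was not repeated with shared counts removed. GAS5 shows the spread, with 65.8, 65.4 and 65.8 CPM in siControl RPF and 66.1, 86.8 and 81.0 CPM in siIGF2BP3 RPF. Its log2 change was 0.27 (edgeR adjusted p = 0.160) with all libraries and 0.35 (edgeR adjusted p = 0.000136) without that replicate. SNHG29, host of C/D box snoRNAs, was called at 0.31 (edgeR adjusted p = 0.0399) when shared counts were removed.

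**Figure D3:**
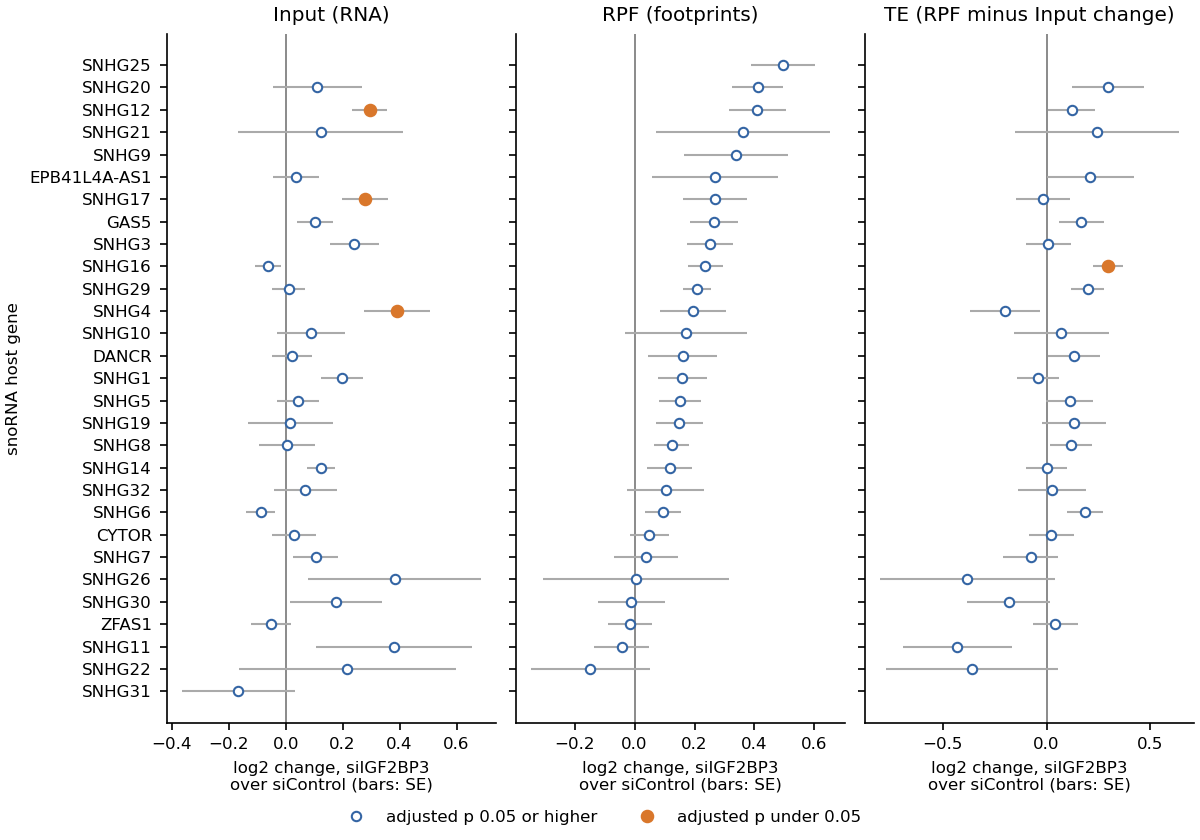
log2 change of siIGF2BP3 over siControl with SE bars for Input, RPF and translational efficiency (TE, the RPF change minus the Input change) of the host genes tested. Filled points passed an edgeR adjusted p of 0.05; they are SNHG12, SNHG17 and SNHG4 in Input and SNHG16 in TE, and most RPF values lie right of 0.

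In the TE comparison SNHG16 (chr17:76557766-76565348) was the 1 host gene called of 26 tested, against 2.21% of all 13395 genes. SNHG16, which hosts C/D box snoRNAs, held 198.1, 189.0 and 186.2 CPM in siControl Input and 186.5, 193.4 and 186.9 CPM in siIGF2BP3 Input, with overlapping groups. In RPF it held 90.3, 95.4 and 95.1 CPM in siControl and 112.9, 107.6 and 106.2 CPM in siIGF2BP3, with no overlap. The TE change was 0.30 on the log2 scale (SE 0.0716, edgeR adjusted p = 0.0323). The call was lost in 10 of the 12 fits that left out 1 library and with siControl RPF replicates 2 and 3 summed (edgeR adjusted p = 0.0666), with TE changes of 0.26 to 0.32 throughout. With these replicates summed, 141 of 13493 genes were called. Over the 26 host genes, 17 TE changes were above 0, with a median of 0.06 against 0.00 over all genes tested. Leaving out 1 library gave medians of 0.03 to 0.10 and 13 to 18 changes above 0, the lowest of both without siIGF2BP3 RPF replicate 1. SNHG12 had a TE change of 0.12 and SNHG4 of -0.20, neither called (edgeR adjusted p = 0.672 and 0.616).

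**Figure D4:**
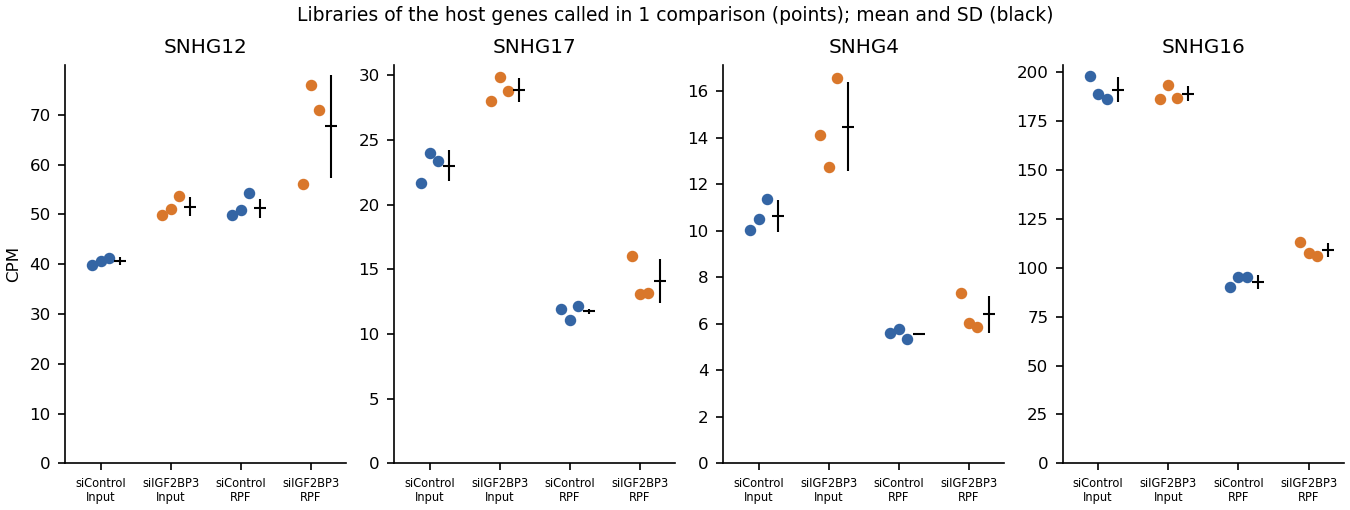
CPM of SNHG12, SNHG17, SNHG4 and SNHG16 in each library (points; blue siControl, orange siIGF2BP3), with the mean and SD in black (n = 3, and n = 2 in siControl RPF). Input of the first 3 genes is higher in all siIGF2BP3 libraries, whereas SNHG16 overlaps in Input and is higher in RPF, 106.2 to 112.9 against 90.3 to 95.4 CPM.

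Ratios of RPF to Input kept much the same order in siIGF2BP3. Their median was 0.752 over the same 26 host genes, against 0.829 over coding genes. SNHG20 had 23.0, SNHG1 6.43, SNHG3 3.14, SNHG19 3.10, DANCR 1.81 and GAS5 1.29. At the low end SNHG10 had 0.346, SNHG14 0.262, EPB41L4A-AS1 0.199 and SNHG6 0.163. These values are descriptions, since the same-numbered libraries were not shown to be paired.

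All 14 factors of nonsense-mediated decay in the list, among them the helicase UPF1 and the kinase SMG1, were tested in the 3 knockdown comparisons, and 0 were called by edgeR or by DESeq2 in Input, RPF or TE, with 3, 2 and 3 at an unadjusted p under 0.05. Likewise 0 of the 11 snoRNP proteins and assembly factors were called by edgeR or DESeq2. Among them are the methyltransferase FBL and the pseudouridine synthase DKC1. With edgeR, 0, 0 and 1 of the 11 had an unadjusted p under 0.05. Over all genes, 3017 of 14759, 3251 of 20192 and 2120 of 13395 had one in Input, RPF and TE. Median log2 changes in Input were 0.01 for the decay factors and -0.02 for the snoRNP proteins.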

How the data were processed

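Per the labels and the study's methods, the authors used cutadapt for trimming, STAR for alignment to hg38 and featureCounts for gene counts (versions and options not given in the sources used here). The deposited files hold estimated counts, unscaled and partly fractional. EPB41L4A-AS1 had no fractional count in any library although 49.6% of its exon bases lie in exons of another gene on the opposite strand. The sources used here do not describe the Input library protocol.

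Counts were rounded and tested with edgeR 4.0.16 (R 4.3.3): filterByExpr, TMM factors, robust quasi-likelihood fits, Benjamini-Hochberg adjustment over all genes and a threshold of 0.05. RNA and RPF used the 6 libraries of each assay, TE the interaction over 12, and RPF against Input the 6 siControl libraries with RPF offsets shifted so that the coding median was 0. DESeq2 1.42.0 was an alternative. The fits were tested on simulated data. CPM used library totals and RPKM also the exon length. Ratios are means of RPF CPM over means of Input CPM. Shared counts are the whole counts of snoRNA or scaRNA genes that overlap host exons in full or in part, capped at the host's count. Symbols came from GENCODE release 44 (58252 of 58721 identifiers, 99.2%; unmatched 0.526% of counts).

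Named genes were the 6 highest in Input RPKM and the 4 highest and 4 lowest ratios with at least 5 CPM, and every called member; others were chosen after their values were seen. The members and lists were chosen with earlier results of these data known. Other alternatives were RLE factors, no filter, at least 5 CPM, a replicate block, each library left out, siControl RPF replicates 2 and 3 summed, and, for the ratios, sets of members. Reads carried no molecular identifiers, so the replicate spread is the error used.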

Additional observations from a re-analysis of the deposited data

How the results depend on the processing

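For Input, 3 host genes were called, against 1 with DESeq2 and 1 to 2 without 1 library. Over all genes, Input calls were 879 of 14759, against 718 with DESeq2 and 444 to 907 without 1 library. For RPF, 0 were called, against 4 with DESeq2, 2 with no filter, 1 with shared snoRNA counts removed and 0 to 9 without 1 library. Over all genes, RPF calls were 336 of 20192, against 667 with DESeq2 and 426 of 34396 with no filter. They were 339 of 20191 with shared counts removed and 11 to 3410 without 1 library. For TE, 1 was called, against 0 with RPF replicates 2 and 3 summed and 0 to 3 without 1 library. The 3, of 26 host genes tested, were GAS5, SNHG29 and SNHG16 without siIGF2BP3 RPF replicate 1. That fit called 1347 of all 13479 genes, so the count says little about the host genes. Over all genes, TE calls were 296 of 13395, against 141 with siControl RPF replicates 2 and 3 summed and 126 to 1347 without 1 library. Of the 14 host genes called higher in RPF than Input, 9 were called with at least 5 CPM and 9 with shared counts removed. The removal reversed SNHG20 to -0.85 and SNHG3 to -0.54 (log2). Over all genes, 11796 of 20595 were called higher, against 4487 of 9757 with at least 5 CPM and 11791 of 20594 with shared counts removed. The median ratio of 0.749 was 0.596 over the 3 host genes that share no exon, 0.177 for the 1 gene with whole-number counts (EPB41L4A-AS1), 0.612 with shared counts removed, 0.596 without snoRNA bases in exons and 0.725 to 0.779 without 1 library.

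The replicate numbers are not known to pair the libraries: deviations of same-numbered libraries correlated at 0.345, 0.246 and 0.0759 in RPF and below 0 in Input. With the replicate block, host gene calls were 3 in Input, 0 in RPF and 26 in RPF against Input, as without it. In TE they were 0, also with a block for each knockdown and replicate number (SNHG16 edgeR adjusted p = 0.0697 and 0.112). The latter block treats same-numbered Input and RPF libraries as 1 culture, which the labels do not state. Members below about 1 CPM in Input, such as SNHG25 and SNHG9, have ratios that rest on few counts.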
